A study of Mus musculus with 2 samples.

Results

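The Notch receptors, their canonical ligands and the transcription factor that carries their signal were followed in polyadenylated RNA of the mouse neural tube at embryonic day 12.5. The 10 genes were Notch1, Notch2, Notch3 and Notch4 (receptors), Dll1, Dll3 and Dll4 (Delta-like ligands), Jag1 and Jag2 (Jagged ligands) and Rbpj. They were taken by gene symbol in the GENCODE M21 annotation from gene tables of 55536 genes, and all 10 were found. The series has 1 group of 2 libraries, both from strain B6NCrl, with no transgene or treatment named in the labels. Replicate 1 was made from the pooled neural tubes of 120 embryos and replicate 2 from those of 88 embryos, with males and females mixed in each pool. The cDNA of each was primed with oligo-dT from 10 ng of total RNA and fragmented by tagmentation, and ERCC spike-in RNAs were added. With 1 group there was no comparison between conditions, so the levels are compared among genes and between the 2 pools.

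Notch is a receptor that acts between touching cells. A ligand on 1 cell binds the receptor on its neighbour, ADAM proteases and then gamma-secretase cut the receptor, and the freed intracellular domain enters the nucleus. There it joins Rbpj, the DNA-binding protein of the pathway, and Mastermind co-activators to switch on Hes and Hey genes. In the embryonic neural tube this circuit is known for lateral inhibition, in which newly committed neurons display Delta-like ligands and hold their neighbours in the progenitor state, and in blood vessels it separates sprouting from stalk endothelial cells.

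Rbpj is printed first because its transcripts begin with different coding exons, which the read assignment had to separate. GENCODE M21 lists 6 protein-coding transcripts of Rbpj, and the 3 that were assigned the most reads here are printed. Their coding starts join the same exon, chr5:53627383-53627421 on the plus strand of mm10 (GRCm38). In each line the capitals are the first coding exon from its ATG, and the lower case is that shared exon. The first coding exon lies at chr5:53590705-53590724 for Rbpj-203, at chr5:53555890-53555903 for Rbpj-202 and at chr5:53590350-53590486 for Rbpj-201.
Rbpj-203: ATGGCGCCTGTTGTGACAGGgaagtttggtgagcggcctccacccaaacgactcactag
Rbpj-202: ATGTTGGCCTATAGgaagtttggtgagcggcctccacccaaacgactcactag
Rbpj-201: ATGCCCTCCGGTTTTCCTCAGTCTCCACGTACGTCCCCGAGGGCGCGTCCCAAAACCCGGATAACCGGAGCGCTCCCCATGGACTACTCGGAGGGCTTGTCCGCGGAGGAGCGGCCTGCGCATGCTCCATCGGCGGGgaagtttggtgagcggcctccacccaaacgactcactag
The capitals are 20, 14 and 137 bases long, and each length leaves a remainder of 2 when divided by 3, so the shared exon is read in the same frame after all 3 starts.

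A further sequence is shown because a short non-coding transcript took a large share of the level of Notch4. Notch4-210 is annotated as a processed transcript of 619 bases in 2 exons, of which 543 bases also lie in exons of the coding transcript Notch4-201. The capitals are its 76 own bases, at chr17:34587041-34587116 on the plus strand of mm10, and the lower case is the start of the sequence it shares with Notch4-201.
Notch4-210: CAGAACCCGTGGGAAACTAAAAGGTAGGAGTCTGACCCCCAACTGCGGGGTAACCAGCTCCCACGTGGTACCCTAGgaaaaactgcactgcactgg
Reads that fell wholly in the shared 543 bases could have come from either transcript.

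The promoters of the 10 genes were searched for the core of the Rbpj binding site and for the E-box bound by proneural factors, because Rbpj and proneural proteins are the known regulators of this circuit. The sequences are those of RefSeq (GRCm38.p6), from 250 bases before to 50 bases after each start site, and 12 promoters matched the 10 genes. The E-box CAGCTG reads the same on both strands and was found in 3 of the 12 promoters, against 16.3% of all 32851 promoters in the table. It stood 82 bases before the start site of Jag1, 7 bases before that of Dll3 and 132 bases before the upstream start site of Dll1. Each line gives 30 bases in the direction of the gene with the E-box in capitals, at chr2:137116585-137116614, chr7:28301775-28301804 and chr17:15377047-15377076, all on the minus strand.
Jag1 promoter: ccgcgtttcatgCAGCTGatctgaaaggga
Dll3 promoter: tccggcatccagCAGCTGcgactcctgaga
Dll1 promoter: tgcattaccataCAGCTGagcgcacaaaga
The Rbpj core TGGGAA, searched on both strands, was found in the promoters of Rbpj alone among the 10 genes, and in 25.6% of all promoters. The next lines show it at chr5:53590185-53590214 and, as its reverse complement TTCCCA, at chr5:53590269-53590298, both on the plus strand.
Rbpj promoter, forward match: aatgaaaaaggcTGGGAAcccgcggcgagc
Rbpj promoter, reverse match: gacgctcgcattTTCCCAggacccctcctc
The E-box CATCTG and the TATA sequence TATAAA, searched on both strands and present in 17.2% and 13.6% of all promoters, were in 0 of the 12. The general E-box CANNTG, of which CAGCTG and CATCTG are forms, was in 72.3% of all promoters. Among the 12 it was found for Dll1, Dll3, Jag1 and Notch4 and in the upstream promoter of Rbpj. The downstream promoter of Rbpj and those of Dll4, Jag2, Notch1, Notch2 and Notch3 held none. A match of this kind describes the letters and does not show that a factor binds there. The promoters also differed in CpG content, from 5 CpG in that of Notch4 to 41 in that of Notch2 and 63 in that of Jag2, against a median of 7 over all promoters.

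Levels are given in TPM, an abundance unit that divides the reads of a gene by its effective length so that genes can be compared. This takes reads to cover short and long transcripts alike, which was not tested in this oligo-dT primed cDNA. The neural tube held RNA of every receptor and every ligand tested, and the Delta-like ligands Dll3 and Dll1 stood highest. All 10 genes exceeded 1 TPM in both libraries, as did 60.9% of the 22028 protein-coding genes. Of the 10, 9 exceeded 5 TPM in both libraries, against 49.5% of protein-coding genes, and Dll4 was the exception. In bulk tissue, fewer cells of a type and less RNA per cell cannot be told apart. Together the 10 genes took 0.0814% of all reads assigned to genes in replicate 1 and 0.0844% in replicate 2, which were 32527913 and 34436572 estimated counts; with spike-ins and tRNAs the libraries held 33529531 and 35461403.

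**Figure D1:**
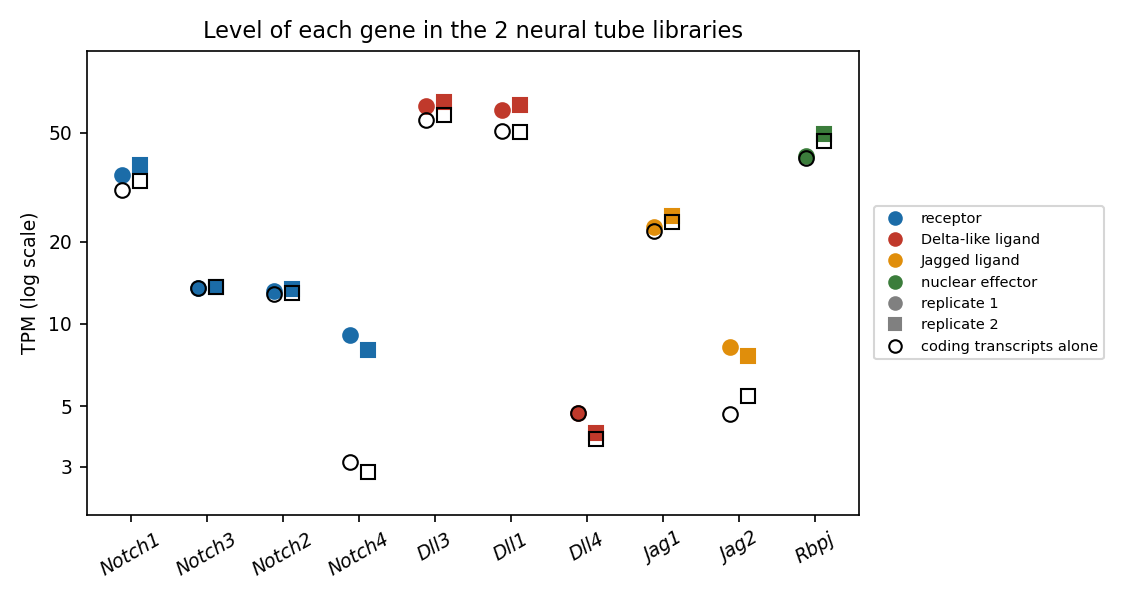
Level of each gene (TPM, log scale) in replicate 1 (circles) and replicate 2 (squares), coloured by role, with open symbols for the summed TPM of its protein-coding transcripts alone. Dll3 and Dll1 lie near 60 TPM in both libraries, and the open symbols of Notch4 and Jag2 lie well below their filled ones.

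Among the receptors Notch1 was highest, and it stood near the sum of the other 3. Notch1 (ENSMUSG00000026923.15, chr2:26457903-26516663, minus strand), the receptor best known for keeping neural progenitors undifferentiated, had 34.96 TPM in replicate 1 and 38.03 in replicate 2 (36.5 ± 2.17, mean ± SD, n = 2). It rested on 6238 and 6986 counts, the largest numbers of reads among the 10 genes. Notch3 (ENSMUSG00000038146.8, chr17:32120820-32166852, minus strand), known in neural progenitors and in the mural cells that wrap vessels, had 13.59 and 13.65 TPM (13.6 ± 0.0424). Notch2 (ENSMUSG00000027878.11, chr3:98013527-98150361, plus strand), a receptor of broad expression, had 13.15 and 13.45 TPM (13.3 ± 0.212). The values of Notch3 lay above those of Notch2 in both libraries without overlap, but by a log2 ratio of only 0.03 ± 0.02. Notch4 (ENSMUSG00000015468.14, chr17:34564268-34588503, plus strand), known mainly from endothelial cells, was the lowest receptor with 9.09 and 8.04 TPM (8.57 ± 0.742) on 482 and 456 counts. Its deposited interval of TPM, whose level is not stated, ran from 8.18 to 13.1 in replicate 1 and from 7.65 to 12.2 in replicate 2. Notch1 made up 49.4% and 52.0% of the summed receptor TPM, and its log2 ratio over the other 3 receptors together was -0.035 in replicate 1 and 0.11 in replicate 2, so that which of the 2 was larger differed between the libraries.

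Among the ligands, the Delta-like pair Dll3 and Dll1 held most of the RNA, Jag1 came next, and Jag2 and Dll4 were low. Dll3 (ENSMUSG00000003436.11, chr7:28293553-28302238, minus strand) encodes a divergent ligand known to act inside the cell that makes it rather than to activate receptors on neighbours. It had 62.96 and 64.81 TPM (63.9 ± 1.31) on 3038 and 3277 counts, and 87.3% of protein-coding genes were lower. Dll1 (ENSMUSG00000014773.13, chr17:15367354-15376872, minus strand), the main activating ligand of newly born neurons, had 60.62 and 63.38 TPM (62.0 ± 1.95) on 3739 and 3866 counts. The values of Dll3 and Dll1 overlapped across the libraries, so their order was not resolved, although Dll3 was the higher within each library. Jag1 (ENSMUSG00000027276.7, chr2:137081456-137116644, minus strand), which marks particular dorsoventral domains of neural progenitors, had 22.68 and 24.91 TPM (23.8 ± 1.58). Jag2 (ENSMUSG00000002799.6, chr12:112907819-112929776, minus strand), a ligand described in motor neurons, had 8.23 and 7.64 TPM (7.94 ± 0.417) on 503 and 601 counts, so that its TPM was lower and its count higher in replicate 2. Its effective length was estimated at 2918 bases in replicate 1 and 3628 bases in replicate 2. Dll4 (ENSMUSG00000027314.6, chr2:119325784-119335962, plus strand), the ligand of endothelial tip cells and of some interneuron progenitors, was the lowest of the 10 genes with 4.70 and 3.98 TPM (4.34 ± 0.509) on 359 and 303 counts.

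Rbpj (ENSMUSG00000039191.12, chr5:53466152-53657362, plus strand) had 41.30 TPM in replicate 1 and 49.53 in replicate 2 (45.4 ± 5.82), the widest spread of TPM among the 10 genes. It stood above Notch1 in both libraries, with a log2 ratio of Notch1 over Rbpj of -0.31 ± 0.10. In the order of levels Dll3, Dll1, Rbpj, Notch1, Jag1, Notch3, Notch2, Notch4, Jag2 and Dll4, 7 of the 9 neighbouring pairs did not overlap between libraries. The exceptions were Dll3 with Dll1, and Notch4 with Jag2. The deposited intervals of TPM overlapped for further pairs. They did so for Notch3 with Notch2 in both libraries, and for Rbpj with Notch1 and Notch2 with Notch4 in replicate 1.

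Summed by role, ligand RNA exceeded receptor RNA by the same margin in both pools. The receptors summed to 70.8 and 73.2 TPM (72.0 ± 1.68) and the ligands to 159 and 165 TPM (162 ± 3.91), a log2 ratio of 1.17 in each library. The Delta-like ligands summed to 128 and 132 TPM and the Jagged ligands to 30.9 and 32.6 TPM, a log2 ratio of 2.04 ± 0.02. Dll1 and Dll3 together made up 77.6% of ligand TPM in replicate 1 and 77.8% in replicate 2, and their log2 ratio over the other 3 ligands was 1.80 ± 0.01. Within the Jagged pair, Jag1 exceeded Jag2 by 1.58 ± 0.17 on the log2 scale. These ratios compare RNA per transcript length, and say nothing of protein or of which cells held it. Whether oligo-dT priming covered the long receptor transcripts as fully as the shorter ligand transcripts was not tested. They reverse for ligands over receptors when reads are not divided by length, since the receptor transcripts are the longer ones: the log2 ratio of estimated counts was -0.21.

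The gene levels sum coding and non-coding transcripts, and for a few genes that changed the level. M21 lists 63 transcripts of the 10 genes, of which 19 are protein-coding, 21 keep an intron, 20 are other processed transcripts and 3 are targets of nonsense-mediated decay; 17 had 0 counts in both libraries. For 9 of the 10 genes the transcript with the largest share of TPM was a coding one. Notch4 was the exception, since Notch4-210 held 44.15% of its TPM in replicate 1 and 49.91% in replicate 2, while Notch4-201 of 6591 bases held 34.41% and 35.53%. The reads lay the other way round: Notch4-210 was assigned 43.7 and 45.2 counts and Notch4-201 425 and 402 counts. Divided by length, Notch4-210 came to 4.01 TPM in each library and Notch4-201 to 3.13 and 2.86 TPM. Notch4-201 is the single coding transcript of the gene, and so coding RNA held 34.98% ± 0.774 of the TPM of Notch4 and 88.2% ± 0.102 of its counts.

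**Figure D2:**
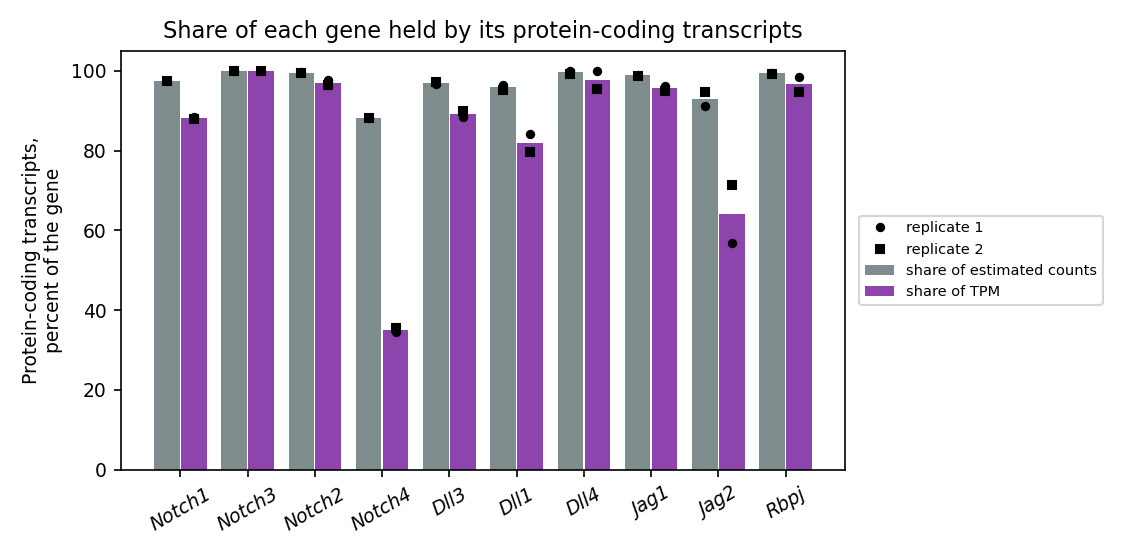
Percent of each gene held by its protein-coding transcripts, by estimated counts (grey bars) and by TPM (purple bars), as the mean of the 2 libraries, with a circle for replicate 1 and a square for replicate 2. The bars of Notch3 reach 100% by both measures, and the TPM bar of Notch4 stands at 34.98% beside a count bar of 88.2%.

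Jag2 and Dll1 also held non-coding RNA. Coding transcripts of Jag2 held 56.8% of its TPM in replicate 1 and 71.4% in replicate 2, a gap that reversed its direction between the libraries: its coding TPM was 4.67 and 5.46, higher in replicate 2, while its gene TPM was lower there. Transcripts of Dll1 that keep an intron held 14.98% and 20.49% of its TPM, and its coding TPM was 51.05 and 50.40, which no longer overlapped with that of Dll3 at 55.61 and 58.32. The coding shares of TPM of the other 7 genes ran from 88.1% for Notch1 through 89.1% for Dll3 to 100% for Notch3. By coding TPM alone 7 of the 10 genes kept their place in the order, and the 3 lowest became Jag2, Dll4 (4.70 and 3.80 TPM) and Notch4. The coding TPM of Jag2 and Dll4 overlapped between the libraries, so their order was not resolved.

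The reads of Rbpj could be assigned to the gene with little doubt but not to its starts. The posterior SD of the gene count, the authors' measure of how uncertainly shared reads were assigned, was 10.6 of 4537 counts in replicate 1 and 12.7 of 5410 counts in replicate 2. Rbpj-203, whose start is the first of the 3 printed above, was assigned 3449 ± 280.2 counts (posterior SD) in replicate 1 and 3619 ± 346 in replicate 2. Rbpj-202 was assigned 663 ± 296 and 1218 ± 324 counts, so that the ranges of 1 posterior SD overlapped between the libraries. Rbpj-201, with the long first exon, was assigned 239.6 ± 92.0 and 372 ± 138 counts. As shares of the gene's TPM, Rbpj-203 held 74.65% and 63.14%, Rbpj-202 14.88% and 22.02% and Rbpj-201 5.17% and 6.47%. The processed pseudogene Rbpj-ps3, a copy derived from Rbpj, held 32.6 and 42.4 counts with the same posterior SD as the gene, and Rbpj-ps1 held 0 in both libraries.

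The older annotation release M4 gave another picture of the Rbpj starts. With M4, Rbpj-203 was assigned 4219 ± 114 counts in replicate 1 and 4995 ± 107 in replicate 2, or 94.73% and 93.55% of the gene's TPM, while Rbpj-202 was assigned 0 in both. Rbpj-201 was nearly the same in both releases, with 239.8 and 352 counts in M4. Rbpj-202 itself differs between the releases, with 5252 bases in M21 and 5394 bases in M4. The level of the gene hardly moved, at 42.09 and 48.60 TPM in M4.

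**Figure D3:**
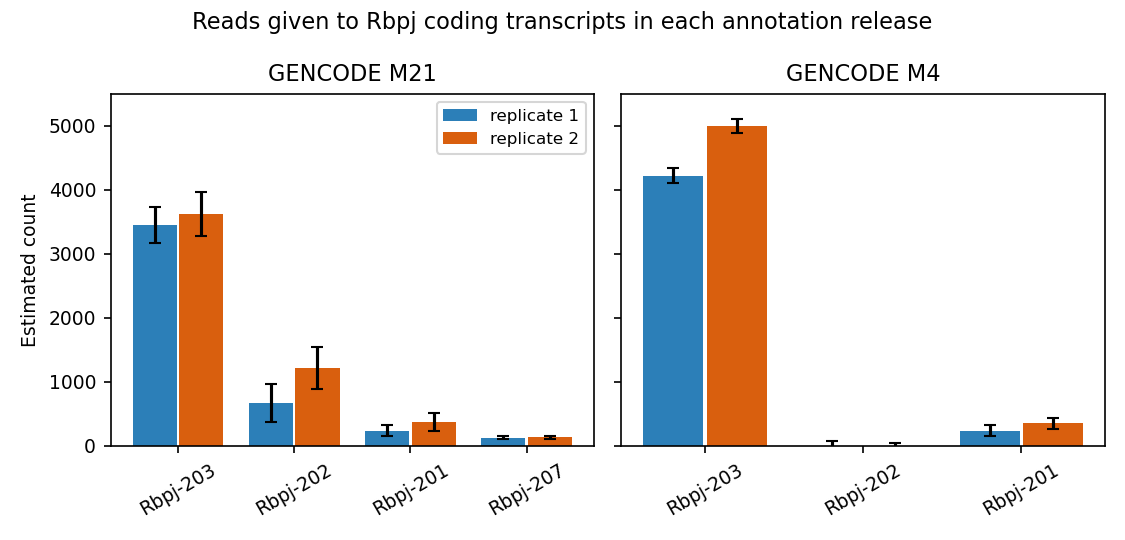
Estimated counts assigned to the main coding transcripts of Rbpj in replicate 1 (blue) and replicate 2 (orange) with the M21 annotation (left) and the M4 annotation (right); error bars are the deposited posterior SD. Rbpj-203 leads in both releases, and Rbpj-202 holds 663 and 1218 counts in M21 but 0 in M4.

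Among the gene levels that of Jag2 differed most between the releases. In M4 it had a single transcript, Jag2-201, of 4054 bases instead of 5106, with 377 and 469 counts and 4.79 and 5.74 TPM, so that its TPM was higher in replicate 2 as for the coding transcripts of M21. The TPM of Dll3 (66.23 and 67.96), Dll1 (63.64 and 66.33), Notch3 (14.10 and 14.31) and Notch2 (13.58 and 13.73) was higher in M4 by more than the SD between the libraries. All 10 genes kept their place in the order of mean levels. In replicate 1 with M4, however, Jag2 at 4.79 TPM lay below Dll4 at 4.95 TPM. Notch4 did not lose its short transcript in M4, where Notch4-210 held 44.58% and 50.60% of TPM. No label mentions a kit that marks strand. If strand was not marked, reads from exons that overlap on opposite strands cannot be told apart by strand. Among genes whose span overlaps exons of the 10 genes on the opposite strand, the largest by counts was Gm13568. It lies opposite the 3′ end of Notch1, with 153 and 152 counts beside the 6238 and 6986 of Notch1. The gene 0610009E02Rik, also opposite Notch1, held 54.0 and 70.5. A930024N18Rik, opposite the first exon of Dll1, held 58.6 and 53.0 counts, and Gm17276 opposite Notch3 held 16.9 and 17.3.

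The 2 pools of embryos gave like values for most of the 10 genes. Counts were rounded and scaled by TMM, and the level in replicate 2 over that in replicate 1 was expressed as a log2 ratio for the 20125 genes that had 10 counts or more in a library. A gene was called where this ratio went past 0.32 in either direction. With 1 library on each side there was no replicate check and no p-value, and the 95% intervals are exact Clopper-Pearson intervals of the counts that cover counting error only. Past this threshold were 23.3% of all genes tested, with 10.1% higher and 13.2% lower in replicate 2, and 1 of the 10 genes. That gene was Dll4, with a log2 ratio of -0.33 (95% interval -0.56 to -0.11). Among the 3523 genes within a factor of 2 of its mean count, 13.4% passed it too, and the same share around the other genes ran from 0.762% for Notch1 to 9.02% for Notch4. Dll4 no longer passed when libraries were scaled to the ERCC spike-ins, at -0.28, or by the ratio of TPM, at -0.24.

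The other 9 genes stayed within the threshold. The next largest ratios by size were 0.17 for Jag2 (-0.01 to 0.34) and -0.17 for Notch4 (-0.36 to 0.02), whose counting intervals both included 0; the ratio for Jag2 was -0.11 when taken from TPM. The ratio was 0.16 for Rbpj (0.11 to 0.22), 0.08 for Jag1 (0.00 to 0.16) and 0.07 for Notch1 (0.02 to 0.12), which with Dll4 made 4 genes whose counting interval left out 0. Dll3, Dll1, Notch2 and Notch3 lay between -0.04 and 0.02. Of the 10 genes 5 were higher and 5 lower in replicate 2 and their median log2 ratio was 0.00, beside -0.00 for all genes, and 8 were higher when scaled to the spike-ins, which moved the median of all genes by 0.06.

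**Figure D4:**
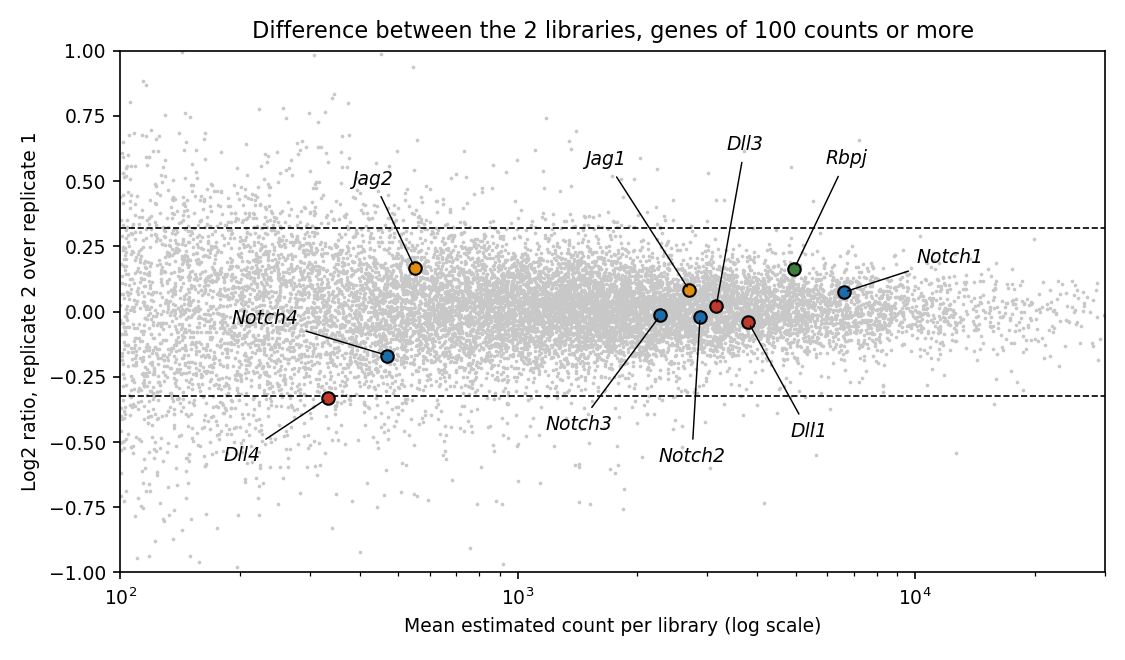
Log2 ratio of replicate 2 over replicate 1 against the mean estimated count (log scale) for genes with a mean of 100 counts or more; grey points are 13357 genes, coloured points are the 10 genes by role, and dashed lines mark the threshold of 0.32 in either direction. Genes of lower count or beyond the axes (6768) are not drawn, and Dll4 lies just below the lower line.

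Genes of cell types that carry these ligands and receptors were measured beside them. All 10 endothelial markers exceeded 1 TPM in both libraries, as did 60.9% of protein-coding genes. They ran from Cldn5, a tight junction gene of brain vessels, at 44.0 ± 1.46 TPM down to the transcription factor gene Erg at 3.02 ± 0.396 TPM. Their summed level was 181 TPM in replicate 1 and 191 TPM in replicate 2. The log2 ratios of this list had 0.04 as their median. The threshold was passed by 0 of 10, beside 23.3% of all genes, many of them of lower count, so nothing is read from this. Dll4 and Notch4 had ratios of -0.33 and -0.17. Of 9 mural cell markers 8 exceeded 1 TPM in both, with Acta2 at 41.4 ± 8.32 and Myh11 at 0.270 ± 0.0849 TPM, and Notch3 stood at 13.6 TPM beside Pdgfrb at 16.8 ± 0.997 TPM. The mural list summed to 102 and 89.6 TPM, and the ratio of Notch3 was -0.01. Past the threshold were 4 of 9 mural genes, beside 23.3% of all genes. These 4 were Acta2, Tagln, Myh11 and Des, all lower past the threshold in replicate 2. Within it, Kcnj8 (0.31), Abcc9 (0.28), Pdgfrb (0.08) and Rgs5 (0.02) were higher there and Cspg4 (-0.18) was lower. How much of Notch3, Notch4 and Dll4 came from vessel cells was not tested.

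Listed genes of neural progenitors and of neurogenic commitment, the cell states in which Notch1 and Dll1 are best known, all exceeded 1 TPM in both libraries. So did 60.9% of protein-coding genes. The 10 progenitor markers ran from Fabp7 at 1430 ± 49.3 TPM down to Sox1 at 1.53 ± 0.0849 TPM and summed to 2952 and 3047 TPM; 1 of 10, Sox3, passed the threshold and was lower in replicate 2. The 12 commitment genes ran from Hes6 at 284 ± 3.48 TPM down to Atoh1 at 5.20 ± 2.04 TPM and summed to 783 and 844 TPM. Of these 12, 2 passed the threshold and were higher in replicate 2, Atoh1 and Neurod1 (0.78 and 0.35), and 1 was lower, Neurog3 (-0.58). That is near the 23.3% of all genes past it, so nothing is read from this count. Dll1 and Dll3 had ratios of -0.04 and 0.02. The proneural genes Neurog2 (41.4 ± 3.17 TPM) and Neurog1 (28.6 and 31.4 in the 2 libraries) were below Dll1 (62.0 ± 1.95 TPM) in both libraries, Neurog1 the further. RNA of genes that mark tissue around the tube was also found, and for some of them it differed between the pools. Beside the 23.3% of all genes past the threshold, 8 of 9 sensory ganglion markers passed it and were higher in replicate 2 (summed 337 and 473 TPM). Of the skeletal muscle markers with enough counts, 8 of 9 passed it and were lower (365 and 266 TPM). Of the Schwann cell and crest markers 3 of 10 passed it, all higher in replicate 2 (278 and 311 TPM), and of the mesenchyme markers 1 of 10, lower there (882 and 902 TPM). Whether the RNA of these markers came from outside the tube or from cells within it cannot be told apart here. The part of these differences in the levels of the 10 genes was not tested.

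The rest of the pathway was present as well. Of 44 other pathway genes, 42 exceeded 1 TPM in both libraries and 38 exceeded 5 TPM, with a median of 26.7 TPM. Among all protein-coding genes the shares were 60.9% and 49.5%. The exceptions were Neurl1b, a ubiquitin ligase gene of ligand endocytosis, at 0.39 and 0.46 TPM, and Rbpjl, a relative of Rbpj known from the pancreas, at 0.14 and 0.10 TPM, against 41.30 and 49.53 TPM for Rbpj. Past the threshold of 0.32 between the libraries were 6.82% of the 44, beside 23.3% of all genes, many of them of lower count: the target gene Heyl was higher in replicate 2 (0.33), and the low genes Neurl1b (-0.48) and Rbpjl (-0.49) were lower.

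**Figure D5:**
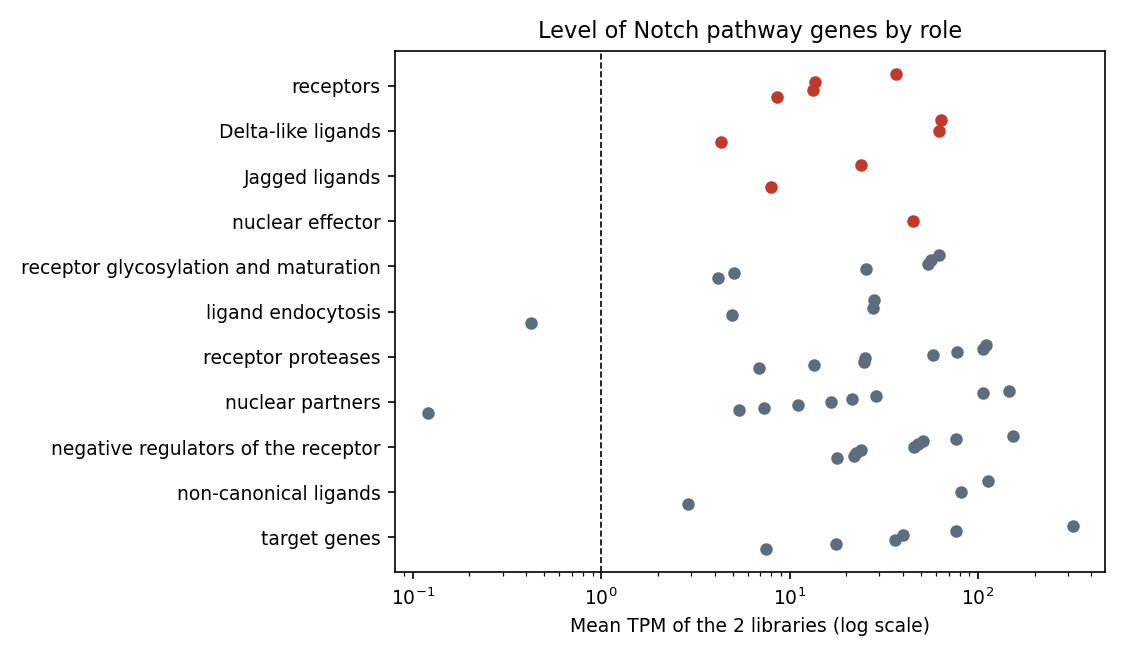
Mean TPM of the 2 libraries (log scale) for each Notch pathway gene, by role, with the 10 receptor, ligand and Rbpj genes in red and the other pathway genes in grey; the dashed line marks 1 TPM. Hes5 lies farthest right at 317 TPM, and Neurl1b and Rbpjl are the points left of the line.

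In the signal-sending cell, ligands are ubiquitinated by Mind bomb proteins before they can pull on the receptor. Mib1, which serves Delta-like and Jagged ligands, was at 28.9 and 26.8 TPM and Mib2 at 26.42 and 30.03 TPM, with overlapping values, and both lay below Dll1 and Dll3. Neurl1a was at 4.92 and 4.93 TPM. In the signal-receiving cell, the receptors are modified by sugar transferases. Of these Rfng was at 62.3 ± 2.58, Poglut1 at 56.2 ± 1.80, Mfng at 54.3 ± 4.52 and Lfng at 25.5 ± 2.07 TPM; the Fringe enzymes encoded by Rfng, Mfng and Lfng change which ligands a receptor answers to. Pofut1, which adds the sugar that the Fringes extend, was lower at 4.45 and 3.84 TPM, and the maturation protease gene Furin was at 5.11 and 4.98 TPM.

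Every measured protease component that frees the intracellular domain exceeded 5 TPM in both libraries, as did 49.5% of protein-coding genes. Adam10, which makes the first ligand-dependent cut, was at 71.8 and 83.6 TPM, above each of the 4 receptors, and Adam17 at 22.4 and 27.8 TPM. Among gamma-secretase subunits Psenen was at 110.0 ± 2.57, Ncstn at 106 ± 3.42 and Aph1a at 24.9 ± 5.19 TPM, while Psen2 was at 6.24 and 7.53 TPM. Of the proteins that meet the intracellular domain on DNA, the Mastermind genes were low, with Maml2 at 11.1 ± 0.184, Maml3 at 7.32 ± 0.0636 and Maml1 at 5.42 ± 0.530 TPM, each below Rbpj. Among co-repressor genes of Rbpj, Spen was at 16.7 ± 0.226 and Hdac1 at 146 ± 7.93 TPM, and the histone acetyltransferase gene Ep300 was at 21.4 ± 3.92 TPM.

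All 6 target genes exceeded 5 TPM in both libraries, as did 49.5% of protein-coding genes. Hes5, the repressor gene most tied to Notch activity in neural progenitors, had 322 and 312 TPM, above each of the 10 receptor, ligand and Rbpj genes. Nrarp, a target that feeds back on the receptor, had 76.2 and 76.3 TPM. Hes1 (40.02 and 39.82 TPM) and Hey1 (36.4 and 36.2 TPM) stood near Notch1, and Heyl (15.8 and 19.4 TPM) and Hey2 (7.23 and 7.73 TPM), known from vessels among other tissues, were lower. The median log2 ratio of the 6 genes between the libraries was -0.03.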

How the data were processed

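Polyadenylated RNA of 2 neural tube pools was measured, and the authors deposited gene and transcript tables per library. Per the labels the assembly is mm10, and per the deposited notes, reads aligned to the transcriptome were quantified against GENCODE M21 and, separately, M4; the sources used here do not name the aligner or the quantifier. The deposited estimated count shares reads that match several genes among them, and the deposited TPM divides it by effective length. Per the file headers the percent of a gene's TPM held by each transcript and a posterior SD of each count are given. M21 was the main release. The members and gene lists were chosen with earlier results of these data known; all members and all pathway genes could be named, and of the markers the extremes of each list, with all genes of the endothelial, mural, progenitor and commitment lists. A few listed genes are counted but their values are not reported here.

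Levels are mean ± SD of deposited TPM over the 2 libraries, which the labels call biological replicates. Neighbours in the order of levels were called apart where their libraries did not overlap. For the ratio between libraries, counts were rounded, scaled by TMM in edgeR 4.0.16 (R 4.3.3) and given a prior count of 2, with at least 10 counts in either library; the calculation was tested on simulated data. Alternatives were DESeq2 1.42.0 size factors, ERCC totals, ratios of TPM, no count filter, a prior count of 0.5, 1.5-fold, M4, posterior mean TPM, TPM over protein-coding genes alone, counts not divided by length and each library alone; coding transcripts alone were added after the data were seen. Python 3.11.15 with pandas 2.3.3, scipy 1.17.1 and matplotlib 3.10.9 was used.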

Additional observations from a re-analysis of the deposited data

How the results depend on the processing

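The log2 ratio of ligands over receptors was 1.17 and ran from 1.17 to 1.17 with either library left out; it was 1.15 with M4, 1.07 with posterior mean TPM and 1.18 with coding transcripts alone, and reversed to -0.21 with counts not divided by length. That of Delta-like over Jagged ligands was 2.04 (2.02 to 2.05 with either library left out), with 2.17, 2.00, 2.01 and 1.17 under the same 4 settings. That of Dll1 and Dll3 over the other ligands was 1.80 (1.80 to 1.81), with 1.92, 1.76, 1.75 and 0.96. Notch1 over the other receptors was 0.04, from -0.035 without replicate 2 to 0.11 without replicate 1, with 0.058, 0.091, 0.12 and 0.23 under those settings; with coding transcripts alone it was positive in both libraries, at 0.065 and 0.18. Scaling TPM over protein-coding genes alone raised all 10 levels (Notch1 from 36.5 to 44.2 TPM) and moved no gene in the order. Dividing by length is what separates the count values from the others, and the cause of the other shifts was not tested. Past the threshold of 0.32 was 1 of the 10 genes; 0 passed with ERCC scaling, the ratio of TPM or 1.5-fold. Of all genes 4684 passed, 12525 with no filter beyond 1 count and 2255 at 1.5-fold. No paired analysis was possible because the libraries form 1 group. With 2 libraries the SD has a single degree of freedom, and counting error limits Dll4, Notch4 and Jag2 most.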

Other observations

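Of 3 genes for ligand-like proteins that lack the usual Delta domain structure, RNA of 2 exceeded that of every canonical ligand. Dner, a transmembrane protein of neurons with Notch-type repeats, was at 113.2 and 112.9 TPM, and Dlk1, an imprinted gene whose product can oppose Notch signalling, was at 84.0 and 79.1 TPM. Dlk2 was at 2.70 and 3.09 TPM, below all 10 receptor, ligand and Rbpj genes.

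All 9 genes grouped here as regulators of the receptor exceeded 5 TPM in both libraries, as did 49.5% of protein-coding genes. The group was listed under the name of negative regulators, which is a label only. Whether each gene, among them Dtx1, Dtx2, Dtx3 and Dtx4, lowers or raises Notch signalling was not tested. Past the threshold of 0.32 on the log2 scale between the libraries were 0 of 9, beside 23.3% of all genes, many of them of lower count, so that nothing is read from this count. Dtx3, a Deltex family gene, was the highest at 148 and 157 TPM, above Nrarp at 76.2 and 76.3 TPM. Numbl at 53.0 and 49.1 TPM exceeded its relative Numb at 22.7 and 22.2 TPM. Numb encodes an adaptor that is inherited unequally by daughter cells in some neural divisions. The ubiquitin ligase genes Itch (45.8 ± 0.0141 TPM) and Fbxw7 (17.9 ± 0.0141 TPM) had nearly equal TPM in both pools.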
